A study of Mus musculus with 26 samples.

Results

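The Wnt ligands, their Frizzled receptors, the R-spondins and the co-receptors Lrp5 and Lrp6 were followed across a mouse osteosarcoma series, in which malignant bone tumours are set against normal bone-forming cells. Members were every gene whose symbol in the array's annotation is Wnt, Fzd or Rspo followed by a number, plus Lrp5 and Lrp6. This gave 36 of 18193 named genes, made up of 19 Wnt genes, 11 Fzd genes, 4 Rspo genes and 2 Lrp genes. Of these, 35 code for proteins, and Fzd10os is a non-coding gene that the symbol rule also takes in. RNA was hybridised to 26 one-colour arrays: 4 osteosarcoma cell lines (numbers 176, 179, 182 and 213), 4 secondary tumours (numbers 29, 64, 66 and 94), 15 primary osteosarcomas and 3 cultures of primary osteoblasts from WT mice, differentiated in vitro. Secondary tumours 29, 64 and 94 are transplants of an osteosarcoma, while number 66 is tissue of a tumour made from a cell line. The titles of all 4 secondary tumours carry the code OPflR, which the labels do not explain and no other title holds. No allele, strain or age is spelled out for any group, and nothing says whether each osteoblast culture had its own animal. The spread between these cultures may therefore be technical. In the fit all 4 groups shared the same estimate of spread for a gene, and 15 of the 26 arrays are primary tumours. A p-value against osteoblasts therefore rests mostly on the spread within the other groups.

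Levels are given as log2 intensity of 1 probe set per gene, the one brightest on average across the 26 arrays, after values were raised to a floor of 3.64 on that scale. An intensity depends on the probe, so levels of different genes are not set against each other. Genes were tested if 3 or more arrays exceeded 5.72, the median log2 value of the whole table. That held for 24 members: 9 Wnt genes, all 10 protein-coding Fzd genes, 3 Rspo genes and both Lrp genes. A gene was called when limma's adjusted p, over 12858 genes, was below 0.05 and the log2 difference at least 1, and "rose" and "fell" are used only of called genes. Added control transcripts parted the arrays into 3 sets, which the labels do not name. Set A held only the 3 osteoblast cultures, set B held 7 primary tumours and the 4 secondary tumours, and set C held 8 primary tumours and the 4 cell lines. Array set and group therefore cannot be told apart in comparisons with osteoblasts. The ratio of the Gapdh 5′ to 3′ probe sets, a sign of RNA quality, was 1.04 to 1.08 in cell lines, 0.839 to 1.08 in secondary tumours, 0.656 to 0.845 in primary tumours of set B and 0.909 to 1.03 in those of set C, and 0.916 to 0.967 in osteoblasts. Array medians, in linear intensity, differed between groups, at 44.4 to 48.2 in cell lines, 54.9 to 58.1 in secondary tumours, 50.4 to 58.8 in primary tumours and 46.4 to 48.2 in osteoblasts.

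Wnt proteins are secreted lipid-modified ligands that bind Frizzled, a family of receptors that cross the membrane repeatedly. With Lrp5 or Lrp6 as co-receptor, they stabilise beta-catenin, which enters the nucleus and acts with Tcf and Lef factors. Other Wnt proteins act mostly without beta-catenin, on cell polarity and movement. R-spondins bind Lgr receptors and hold back Rnf43 and Znrf3, ligases that clear Frizzled from the cell surface. In bone, signalling through Lrp5 and Lrp6 drives osteoblast formation and bone mass.

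Promoter windows are shown for 2 ligands that rose in primary and secondary tumours and 2 receptors that fell there in comparison with osteoblasts. They come from RefSeq, assembly GRCm38.p6, and run from 250 bases before to 50 after the annotated start. Capitals mark GC boxes, GGGCGG or its reverse complement, some of which overlap each other.
Wnt4: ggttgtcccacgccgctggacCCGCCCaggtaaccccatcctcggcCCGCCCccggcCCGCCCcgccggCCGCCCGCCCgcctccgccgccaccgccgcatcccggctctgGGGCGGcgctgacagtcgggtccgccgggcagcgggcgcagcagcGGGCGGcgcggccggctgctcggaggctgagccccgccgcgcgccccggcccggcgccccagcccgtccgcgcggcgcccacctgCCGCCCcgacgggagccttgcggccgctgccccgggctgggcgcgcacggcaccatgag
Wnt6: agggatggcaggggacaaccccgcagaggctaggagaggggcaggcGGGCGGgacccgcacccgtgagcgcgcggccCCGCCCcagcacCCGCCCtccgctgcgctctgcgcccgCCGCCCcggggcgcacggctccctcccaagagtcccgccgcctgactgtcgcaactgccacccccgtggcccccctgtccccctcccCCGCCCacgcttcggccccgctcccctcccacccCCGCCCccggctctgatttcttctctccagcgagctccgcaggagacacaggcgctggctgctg
Fzd4: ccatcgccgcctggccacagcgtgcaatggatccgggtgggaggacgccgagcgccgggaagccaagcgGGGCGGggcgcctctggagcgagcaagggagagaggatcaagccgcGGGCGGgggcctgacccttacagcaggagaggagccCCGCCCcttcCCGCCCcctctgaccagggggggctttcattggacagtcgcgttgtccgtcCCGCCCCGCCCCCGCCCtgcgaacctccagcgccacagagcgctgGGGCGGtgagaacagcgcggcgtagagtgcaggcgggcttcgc
Fzd5: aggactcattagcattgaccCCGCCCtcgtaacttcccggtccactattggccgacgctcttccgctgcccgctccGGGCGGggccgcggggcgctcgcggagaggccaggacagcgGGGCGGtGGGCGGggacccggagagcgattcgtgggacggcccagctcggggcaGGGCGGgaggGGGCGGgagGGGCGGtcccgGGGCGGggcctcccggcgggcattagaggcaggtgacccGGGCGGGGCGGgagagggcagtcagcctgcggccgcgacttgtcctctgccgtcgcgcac
The windows lie at chr4:137277385-137277684 (plus strand) for Wnt4, chr1:74771642-74771941 (plus strand) for Wnt6, chr7:89404116-89404415 (plus strand) for Fzd4 and chr1:64737701-64738000 (minus strand) for Fzd5. All 4 were rich in G and C, at 84.3% for Wnt4, 76.7% for Wnt6, 72.7% for Fzd4 and 75.7% for Fzd5. GC boxes numbered 8, 6, 8 and 10 in the same order, and the ranges of the ligands and the receptors met. On both strands, none of the 4 windows held CTTTGAT (a Tcf/Lef motif), TGTGGT (a Runx motif) or TATAAA (the TATA box). RefSeq windows were found for 23 member genes, 26 windows in all, and 20 of them (76.9%) held a GC box, against 35.7% of 32851 mouse promoter windows. CTTTGAT was in 2 of the 26 member windows and in 3.7% of all windows, TGTGGT in 0 and 16.8%, and TATAAA in 2 and 13.6%.

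Compared with osteoblasts, the tumours had higher levels of several Wnt ligands and lower levels of several Frizzled receptors. In primary tumours 13 of the 24 tested members were called, 7 higher and 6 lower, where 18.4% of all genes tested were called (6.59% higher and 11.8% lower). The median log2 difference of the members was 0.30, against -0.07 over all genes. Of the 7 that were higher, Fzd6, Rspo1, Wnt4 and Wnt10a had 0 osteoblast cultures above the filter, so they entered the test through tumours or lines alone. By family, 5 of 9 Wnt genes rose and 0 fell, while 1 of 10 Fzd genes rose and 4 fell. Secondary tumours gave 13 called members as well, 7 higher and 6 lower, where 18.4% of all genes were called (7.71% higher and 10.7% lower). Fzd6, Wnt4 and Wnt10a, with 0 osteoblast cultures above the filter, were again among the higher ones. In cell lines only 3 members were called against osteoblasts, 1 higher and 2 lower, where 8.16% of all genes were called (1.58% higher and 6.58% lower). The higher one was Wnt4, which also had 0 osteoblast cultures above the filter. These 3 comparisons share the same osteoblast arrays. With only the primary tumours of array set B, or only those of set C, all 13 members called between primary tumours and osteoblasts were called again. With set B, but not set C, Fzd1 (1.02), Wnt11 (1.02) and Wnt5a (1.15) were called higher as well. Both subsets were set against the same osteoblast cultures of set A, so this cannot part array set from group.

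**Figure D1:**
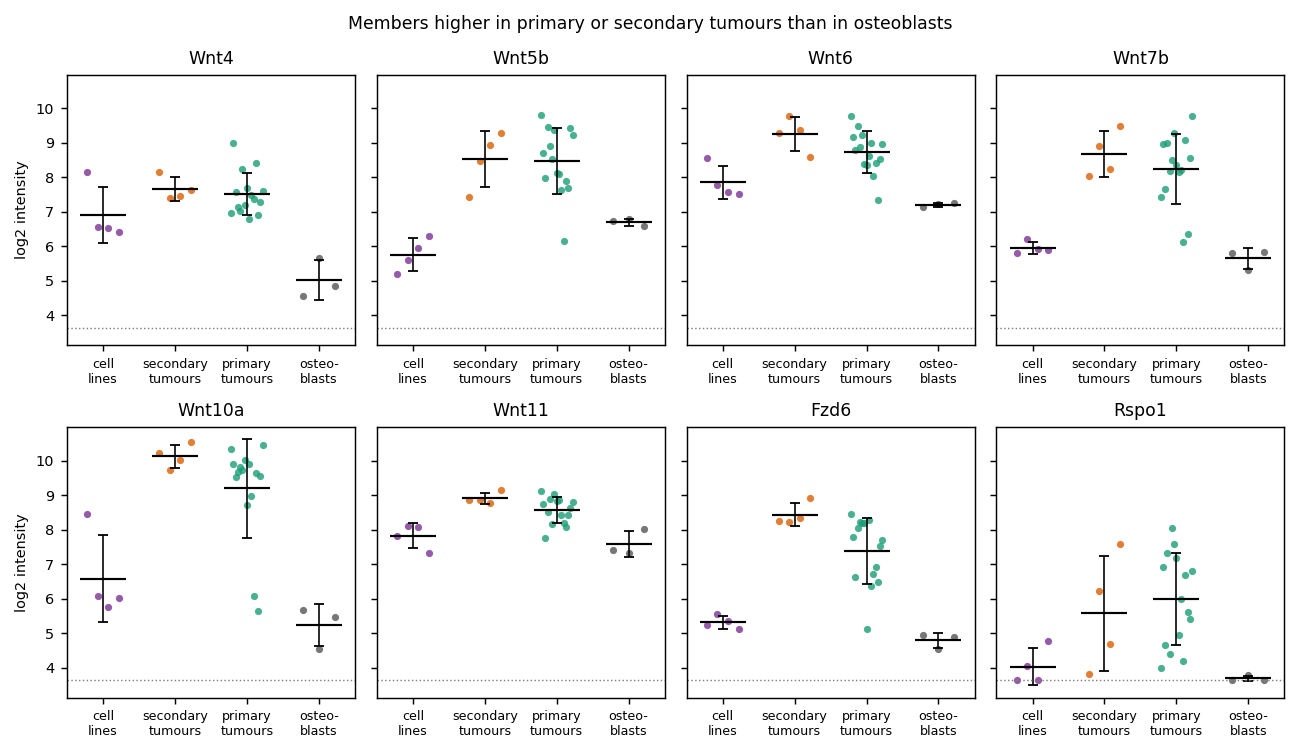
Log2 intensity (vertical axis) of 8 members in cell lines (n = 4), secondary tumours (n = 4), primary tumours (n = 15) and osteoblasts (n = 3). Points are arrays, bars the mean ± SD and the dotted line the floor at 3.64. For Wnt4, Wnt6, Wnt7b, Fzd6 and Rspo1 every primary tumour lies above every osteoblast culture.

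Among the ligands, Wnt10a, which is needed for teeth and skin appendages, moved most. Its level was 8.45, 6.07, 5.77 and 6.01 in cell lines 176, 179, 182 and 213, and 10.23, 9.73, 10.01 and 10.53 in secondary tumours 29, 64, 66 and 94. Primary tumours ran from 5.65 through a median of 9.66 to 10.46, and the osteoblast cultures had 5.67, 4.54 and 5.48. Primary tumours 330, at 5.65, and 183, at 6.07, stood far below the others, and tumour 330 lay within the osteoblast range. Wnt10a averaged 9.20 ± 1.43 in primary tumours (SD, n = 15) and 5.23 ± 0.61 in osteoblasts (n = 3), a log2 difference of 3.96 (SE 0.74, 15.6-fold, limma adjusted p = 0.000147). Secondary tumours stood at 10.13 ± 0.34 (n = 4), 4.89 above osteoblasts (limma adjusted p = 0.000193), while cell lines, at 6.58 ± 1.26, were 1.34 above them without being called (adjusted p = 0.34).

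Wnt6 lies next to Wnt10a on chromosome 1. Its level was 8.55, 7.78, 7.57 and 7.51 in cell lines 176, 179, 182 and 213, 9.27, 9.77, 9.36 and 8.59 in secondary tumours 29, 64, 66 and 94, 7.34 to 9.78 in primary tumours with a median of 8.80, and 7.14, 7.23 and 7.25 in osteoblasts. All 15 primary tumours were above the osteoblasts, with tumours 330 and 183 the lowest again. Wnt6 rose by 1.53 in primary tumours (SE 0.33, limma adjusted p = 0.000645) and by 2.04 in secondary tumours (adjusted p = 0.000363). A second Wnt6 probe set showed larger differences of 3.07 and 3.63 in the same comparisons, in a fit of 27308 probe sets. Its osteoblast values, 3.64 to 3.78, were at or near the floor, so the sizes of these differences depend on it.

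Wnt7b, a ligand known from lung development and bone formation, had 5.82, 6.20, 5.91 and 5.88 in cell lines 176, 179, 182 and 213 and 8.04, 8.90, 8.24 and 9.49 in secondary tumours 29, 64, 66 and 94. Primary tumours ran from 6.12 through 8.37 to 9.79, and osteoblasts had 5.81, 5.31 and 5.83. The cell lines sat in or just above the osteoblast range, and every tumour on the array sat higher than the osteoblasts. The log2 difference was 2.59 for primary tumours (SE 0.51, limma adjusted p = 0.000251), 3.01 for secondary tumours (adjusted p = 0.000574) and 0.30 for cell lines (adjusted p = 0.79).

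Wnt4, a ligand best known from kidney and reproductive tract development, was the only member called higher in cell lines than in osteoblasts. It had 8.14, 6.56, 6.54 and 6.41 in cell lines 176, 179, 182 and 213, 8.16, 7.39, 7.47 and 7.62 in secondary tumours 29, 64, 66 and 94, 6.79 to 8.98 in primary tumours with a median of 7.37, and 4.57, 5.67 and 4.85 in osteoblasts. No array of a line or tumour reached down to the osteoblast cultures. The log2 differences were 1.88 for cell lines (SE 0.45, limma adjusted p = 0.00508), 2.63 for secondary tumours and 2.48 for primary tumours (adjusted p = 8.77e-05 and 1.01e-05). Averaging both Wnt4 probe sets ended the call in cell lines (log2 difference 1.60, adjusted p = 0.0992).

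Wnt5b, a close relative of Wnt5a that acts mostly without beta-catenin, had 5.19, 5.59, 5.96 and 6.29 in cell lines 176, 179, 182 and 213 and 7.44, 8.47, 8.95 and 9.27 in secondary tumours 29, 64, 66 and 94. Primary tumours ran from 6.15 through 8.52 to 9.81, and osteoblasts had 6.72, 6.78 and 6.58. All cell lines lay below the osteoblasts, and all primary tumours but tumour 183 lay above them. Wnt5b rose by 1.78 in primary tumours (SE 0.50, limma adjusted p = 0.00601). In secondary tumours it was 1.84 above osteoblasts (adjusted p = 0.0203), a call lost without any single osteoblast culture (adjusted p = 0.0502 to 0.0595) and without secondary tumour 66 (0.0516) or 94 (0.064).

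Wnt11, which guides cell movement in the embryo, had 7.81, 8.10, 8.07 and 7.32 in cell lines 176, 179, 182 and 213, 8.85, 8.86, 8.77 and 9.14 in secondary tumours 29, 64, 66 and 94, 7.76 to 9.13 in primary tumours with a median of 8.62, and 7.42, 7.33 and 8.02 in osteoblasts. It rose in secondary tumours by 1.32 (SE 0.27, limma adjusted p = 0.000577). In primary tumours the difference of 0.98 was just short of 1 (adjusted p = 0.00108), and it passed 1 without osteoblast culture 3 (1.19) or without primary tumour 29, 87, 183 or 188. Wnt9a, known from joint formation, had 7.27, 8.52, 8.13 and 7.55 in the same order of cell lines, 6.27, 6.58, 6.84 and 6.96 in secondary tumours, 6.36 to 7.79 in primary tumours with a median of 6.84, and 7.35, 7.0 and 7.24 in osteoblasts. Its cell line levels overlapped those of osteoblasts, and no comparison with osteoblasts was called.

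Wnt5a had 8.16, 7.70, 7.97 and 7.87 in cell lines, 8.14, 9.13, 9.04 and 10.13 in secondary tumours, 6.31 to 10.60 in primary tumours with a median of 8.79, and 8.27, 8.24 and 8.40 in osteoblasts. The primary tumours lay on both sides of the osteoblasts, and the difference of 0.25 was not called (SE 0.63, limma adjusted p = 0.77). The direction differed between array sets. The primary tumours of set B were 1.15 above osteoblasts (limma adjusted p = 0.0195). For those of set C the log2 difference was -0.53 and was not called (adjusted p = 0.45). Another Wnt5a probe set was called higher in primary tumours (1.14) and secondary tumours (1.54), so the calls differed between probe sets. Wnt8a was between 5.51 and 6.6 on all arrays and was called in no comparison.

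The other 10 Wnt genes, Rspo4 and Fzd10os did not pass the filter and have no test. Wnt3 was at the floor on all 26 arrays. Wnt1, Wnt3a and Rspo4 stayed at or below 4.73 everywhere, and Wnt2b, Wnt7a, Wnt8b, Wnt9b and Wnt10b stayed at or below 5.60. Fzd10os lay between 3.76 and 6.08. Wnt16, a ligand known for its part in cortical bone, had 3.64 to 6.6 in cell lines, 3.83 to 4.53 in secondary tumours, 3.64 to 5.08 in primary tumours and 5.26 to 6.25 in osteoblasts. Wnt2 had 4.10 to 4.89 in cell lines, 4.15 to 4.79 in secondary tumours, 3.66 to 5.27 in primary tumours and 4.97 to 6.24 in osteoblasts.

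**Figure D2:**
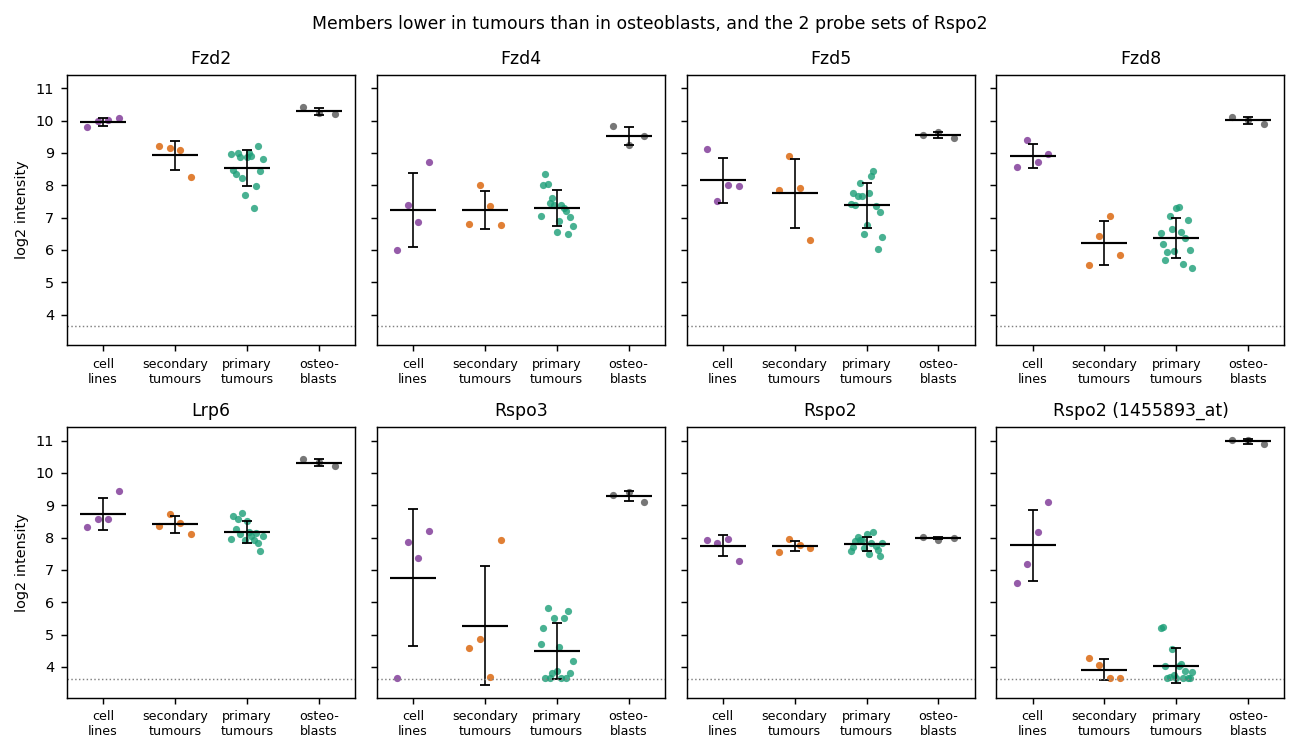
Log2 intensity (vertical axis) of 6 members and of both Rspo2 probe sets in cell lines (n = 4), secondary tumours (n = 4), primary tumours (n = 15) and osteoblasts (n = 3), with points for arrays, bars for the mean ± SD and a dotted line for the floor at 3.64. Fzd8 and Fzd2 are nearer to the osteoblasts in cell lines than in tumours, and only the second Rspo2 probe set, 1455893_at, differs between groups.

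Of the receptors, Fzd8 fell most in tumours. It had 8.55, 9.41, 8.72 and 8.98 in cell lines 176, 179, 182 and 213, 5.53, 6.44, 7.04 and 5.85 in secondary tumours 29, 64, 66 and 94, 5.45 to 7.33 in primary tumours with a median of 6.37, and 10.11, 10.03 and 9.90 in osteoblasts. The 4 groups fell into 3 layers, osteoblasts highest, cell lines between, and both kinds of tumour lowest and overlapping. Its log2 difference from osteoblasts was -3.65 in primary tumours (SE 0.34, 12.5-fold, limma adjusted p = 8.25e-09) and -3.80 in secondary tumours (adjusted p = 1.9e-07). In cell lines the log2 difference of -1.10 was not called (adjusted p = 0.0727), although the second Fzd8 probe set was called there at -2.44. The chosen probe set was called there with array weights (-1.09, limma adjusted p = 0.00164) and with only the groups compared (-1.10, adjusted p = 0.00939).

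Fzd4, which also serves as the receptor for norrin in retinal vessels, had 5.99, 7.40, 6.86 and 8.73 in cell lines 176, 179, 182 and 213, 6.81, 8.01, 7.37 and 6.77 in secondary tumours 29, 64, 66 and 94, 6.49 to 8.34 in primary tumours with a median of 7.29, and 9.82, 9.25 and 9.52 in osteoblasts. Every line and tumour was below every osteoblast culture. The log2 differences were alike in size, at -2.29 for cell lines, -2.29 for secondary tumours and -2.23 for primary tumours (limma adjusted p = 0.00151, 0.000603 and 6.62e-05).

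Fzd5 had 9.13, 7.50, 8.0 and 7.98 in cell lines 176, 179, 182 and 213, 7.85, 8.91, 7.91 and 6.32 in secondary tumours 29, 64, 66 and 94, 6.03 to 8.45 in primary tumours with a median of 7.42, and 9.57, 9.64 and 9.45 in osteoblasts. It fell in primary tumours (log2 difference -2.17, limma adjusted p = 0.000322) and secondary tumours (-1.81, adjusted p = 0.00991). The difference of -1.40 in cell lines had an adjusted p of 0.0756, and it was called without cell line 176 (-1.73, adjusted p = 0.0381) or secondary tumour 94 (adjusted p = 0.0486). Fzd5 was also called there with array weights (-1.60, limma adjusted p = 0.000273) and with only the groups compared (-1.40, adjusted p = 0.0256). Fzd2, of the subgroup with Fzd1 and Fzd7, had 9.79, 9.99, 10.01 and 10.08 in cell lines, 9.20, 9.16, 9.08 and 8.26 in secondary tumours, 7.30 to 9.22 in primary tumours with a median of 8.81, and 10.41, 10.23 and 10.21 in osteoblasts. It fell in primary tumours (-1.74, limma adjusted p = 3.22e-05) and in secondary tumours (-1.36, adjusted p = 0.00384), and cell lines lay close below the osteoblasts.

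Fzd6 was the only receptor that rose against osteoblasts. This Frizzled, which acts in planar cell polarity, had 5.24, 5.55, 5.36 and 5.11 in cell lines 176, 179, 182 and 213, 8.25, 8.22, 8.35 and 8.92 in secondary tumours 29, 64, 66 and 94, 5.13 to 8.44 in primary tumours with a median of 7.69, and 4.95, 4.55 and 4.88 in osteoblasts. The secondary tumours formed a tight group at the top of the primary range, and primary tumour 176 was the lowest tumour. The log2 difference was 2.58 for primary tumours (SE 0.47, limma adjusted p = 9.64e-05) and 3.64 for secondary tumours (adjusted p = 2.84e-05), and 0.52 for cell lines (adjusted p = 0.59). With the mean of its 3 probe sets, of which the other 2 were below the filter on all arrays, the primary tumour difference was 0.96 and was not called.

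Fzd1 had 11.39, 10.07, 10.20 and 10.63 in cell lines 176, 179, 182 and 213, 12.31, 11.30, 11.75 and 12.72 in secondary tumours 29, 64, 66 and 94, 9.55 to 12.83 in primary tumours with a median of 12.07, and 11.19, 11.26 and 11.19 in osteoblasts. Fzd7 had 8.43, 8.21, 8.05 and 7.94 in the same cell lines, 9.54, 9.61, 9.30 and 9.02 in the secondary tumours, 6.95 to 9.25 in primary tumours with a median of 8.73, and 8.94, 8.77 and 8.67 in osteoblasts. Neither was called against osteoblasts with all samples. With only the primary tumours of array set B, Fzd1 was called higher (1.02, limma adjusted p = 0.0228). With those of set C it was not (0.30, adjusted p = 0.64). Fzd3, Fzd9 and Fzd10 differed by less than 1 in every comparison. Fzd9 was below the osteoblasts by a small amount (log2 difference -0.81 in cell lines, -0.46 in secondary tumours and -0.37 in primary tumours).

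Of the co-receptors, Lrp6 fell and Lrp5 was called nowhere. Lrp6 had 8.32, 8.59, 8.56 and 9.44 in cell lines 176, 179, 182 and 213, 8.37, 8.74, 8.45 and 8.10 in secondary tumours 29, 64, 66 and 94, 7.58 to 8.75 in primary tumours with a median of 8.10, and 10.42, 10.34 and 10.20 in osteoblasts. The osteoblast cultures stood above every other array. The log2 differences were -1.60 in cell lines (SE 0.25, limma adjusted p = 9.78e-05), -1.91 in secondary tumours (adjusted p = 4.02e-06) and -2.15 in primary tumours (SE 0.21, adjusted p = 1.82e-08). Lrp5 had 5.40, 6.41, 6.67 and 7.10 in cell lines 176, 179, 182 and 213, 7.18, 7.05, 6.60 and 6.17 in secondary tumours 29, 64, 66 and 94, 5.74 to 7.72 in primary tumours with a median of 6.40, and 6.44, 6.53 and 6.19 in osteoblasts. The groups overlapped. Its difference between primary tumours and osteoblasts was 0.05 (SE 0.30, adjusted p = 0.90).

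Rspo3 fell in tumours against osteoblasts, and Rspo1 rose in primary tumours. Rspo3 had 3.64 (the floor), 7.85, 7.37 and 8.19 in cell lines 176, 179, 182 and 213, 4.59, 4.86, 3.70 and 7.94 in secondary tumours 29, 64, 66 and 94, 3.64 to 5.82 in primary tumours with a median of 4.17, and 9.33, 9.40 and 9.10 in osteoblasts. All tumours and lines were below the osteoblasts, with secondary tumour 94 and 3 of the cell lines far above the primary tumours. The log2 differences were -4.79 in primary tumours (SE 0.74, 27.7-fold, limma adjusted p = 1.46e-05) and -4.00 in secondary tumours (adjusted p = 0.00127), and tumour values at the floor are only upper bounds. In cell lines the difference of -2.51 was not called (adjusted p = 0.058), and it was called without cell line 213 (-2.99, adjusted p = 0.033) or secondary tumour 94 (-2.51, adjusted p = 0.0292). Rspo3 was also called there with array weights (-1.98, limma adjusted p = 0.00465) and with the floor at the 40th percentile (-2.16, adjusted p = 0.00914).

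Rspo1 had 3.64, 4.04, 3.64 and 4.78 in cell lines 176, 179, 182 and 213, 3.81, 6.21, 4.70 and 7.57 in secondary tumours 29, 64, 66 and 94, 4.00 to 8.04 in primary tumours with a median of 6.0, and 3.64, 3.78 and 3.64 in osteoblasts, at or near the floor. Its spread among tumours was wide, and all 15 primary tumours were above the osteoblasts. Osteoblast cultures 1 and 3 were at the floor, so differences from osteoblasts are lower bounds that depend on it. Rspo1 was called higher in primary tumours (log2 difference of at least 2.30, SE 0.74, limma adjusted p = 0.0143), but not with a floor at the 40th percentile (1.13, adjusted p = 0.11) or without osteoblast culture 1 (2.28, adjusted p = 0.0559) or 3 (2.28, adjusted p = 0.0531). In secondary tumours the difference, at least 1.89, was not called (adjusted p = 0.10), except without tumour 29 (2.47, adjusted p = 0.041).

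The 2 Rspo2 probe sets gave different results. The brighter one on average, 1430104_at, which stands for the gene here, had 7.93, 7.84, 7.95 and 7.29 in cell lines 176, 179, 182 and 213, 7.56, 7.95, 7.77 and 7.69 in secondary tumours 29, 64, 66 and 94, 7.42 to 8.17 in primary tumours with a median of 7.82, and 8.01, 7.94 and 8.0 in osteoblasts, and was called nowhere. The other, 1455893_at, had 6.59 to 9.09 in cell lines, 3.64 to 4.28 in secondary tumours, 3.64 to 5.23 in primary tumours and 10.89 to 11.02 in osteoblasts, with no overlap between cell lines, either kind of tumour and osteoblasts. In the fit of 27308 probe sets its log2 difference was -6.95 for primary tumours, -7.07 for secondary tumours and -3.22 for cell lines against osteoblasts, each called. Since 5 primary and 2 secondary tumours were at the floor, the tumour differences are at least that large. Which probe set reads the Rspo2 transcript was not tested. Over all members, 17 other probe sets of tested genes passed the filter, and 13 of them had the same call as the chosen one between primary tumours and osteoblasts. Between cell lines and primary tumours 12 had the same call and 5 a different one, as was so between cell lines and secondary tumours.

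Cell lines stood apart from tumours in 9 of the 24 tested members, against 11.7% of all genes called, 3 higher and 6 lower than in primary tumours (4.7% higher and 7.04% lower over all genes). The median member difference was -0.43, against -0.03 over all genes. The 3 that were higher were Fzd2, Fzd8 and Rspo3, and the 6 that were lower were Fzd1, Fzd6, Rspo1, Wnt5b, Wnt7b and Wnt10a. Fzd6 and Rspo1 had 0 cell lines and 0 osteoblast cultures above the filter, so they entered the test through tumours alone. This comparison shares the primary tumour arrays with the one against osteoblasts. Fzd8 averaged 8.91 ± 0.37 in cell lines (SD, n = 4) and 6.37 ± 0.61 in primary tumours (n = 15), a log2 difference of 2.55 (SE 0.30, 5.85-fold, limma adjusted p = 1.07e-06). Fzd2 was 1.43 higher (adjusted p = 0.00014) with no overlap between groups, and Rspo3 was 2.28 higher (adjusted p = 0.00864).

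In the other direction, Wnt5b averaged 5.75 ± 0.47 in cell lines and 8.47 ± 0.96 in primary tumours (log2 difference -2.71, SE 0.45, 6.55-fold, limma adjusted p = 5.8e-05). The log2 difference was -2.62 for Wnt10a (adjusted p = 0.0033), -2.29 for Wnt7b (adjusted p = 0.000399), -2.06 for Fzd6 (adjusted p = 0.000452), -1.96 for Rspo1 (adjusted p = 0.0211) and -1.28 for Fzd1 (adjusted p = 0.0162). Cell lines 176 and 182 had Rspo1 at the floor, so its difference is at least that large, and its call was lost with the floor at the 40th percentile (-1.13, adjusted p = 0.0832) and with array set as a term (-1.84, adjusted p = 0.0726). The mean of probe sets, tested without the filter, ended the Fzd6 call (-0.66) and the Fzd1 call (-1.06, adjusted p = 0.0624). Leaving out single lines ended 3 calls, that of Fzd1 without line 179 or 182, that of Rspo1 without line 176, 179 or 182, and that of Rspo3 without line 179 or 213 (adjusted p 0.0508 to 0.0715). Without line 176, Wnt4 (-1.01) and Wnt6 (-1.11) were called lower as well. Wnt6 was also called lower with the mean of its probe sets (-1.33, limma adjusted p = 0.0144) and with array weights (-1.12, adjusted p = 0.000266). Wnt9a was 0.99 higher in cell lines, just short of the fold required (adjusted p = 0.000803), and was called without cell line 176 (1.19) or 213 (1.10) and without some single primary tumours.

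Array set C holds all 4 cell lines and 8 of the primary tumours. Within it 7 of the 9 calls remained, and Wnt10a (-2.05, limma adjusted p = 0.0514) and Fzd1 (-0.95, adjusted p = 0.11) were not called. Cell lines 176, 179 and 182 share their numbers with primary tumours, taken here as the same tumour. With the tumour number as a block over these 3 pairs, 3 of the 9 calls remained, where 683 genes were called in all: Fzd8 (1.84, adjusted p = 0.034), Wnt5b (-2.37, adjusted p = 0.0269) and Wnt7b (-2.27, adjusted p = 0.0156). For Wnt10a the differences within pairs 179, 182 and 176 were -3.84, -3.21 and -0.27. Cell line 176 had Wnt10a at 8.45 and its primary tumour at 8.72.

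Against secondary tumours, 11 members were called in cell lines, 3 higher and 8 lower, where 13.1% of all genes were called (4.75% higher and 8.39% lower). The median member difference was -0.48, against -0.07 over all genes. Fzd6, among the 8 lower, had 0 cell lines above the filter and entered the test through tumours alone. Fzd8 was 2.70 higher (limma adjusted p = 2.35e-05), Fzd2 1.04 higher (adjusted p = 0.0165) and Wnt9a 1.21 higher (adjusted p = 0.00166). The log2 difference was -3.55 for Wnt10a (adjusted p = 0.00262), -3.13 for Fzd6 (adjusted p = 0.000135), -2.78 for Wnt5b (adjusted p = 0.000786) and -2.71 for Wnt7b (adjusted p = 0.0011). For Fzd1, Wnt6, Fzd7 and Wnt11 it lay between -1.45 and -1.08. The lines and the secondary tumours lie in different array sets, and with the set as a term 4 of the 11 calls remained: Fzd6, Fzd8, Wnt7b and Wnt11. Single samples also decided some calls, since Fzd2 was not called without secondary tumour 94 (0.82), Wnt11 without cell line 213 (-0.91) or Wnt9a without cell line 179 (0.99). The Fzd1 call was lost without cell line 179, 182 or 213 or secondary tumour 29 or 94, and Rspo3 was called higher without cell line 176 (2.53) or secondary tumour 94 (2.38). Without cell line 176 Wnt4 was called lower (-1.16).

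**Figure D3:**
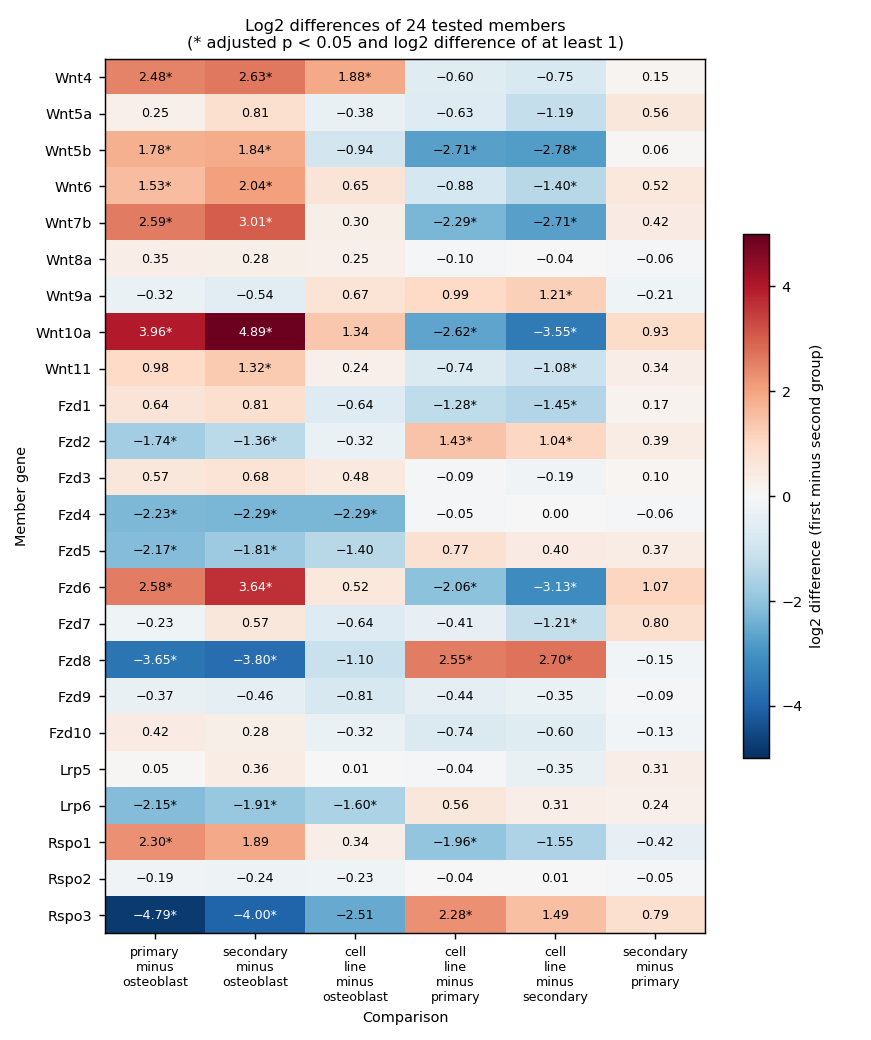
Log2 differences (colour and number, first group minus second) of the 24 tested members in 6 comparisons, with an asterisk where the adjusted p was below 0.05 and the difference at least 1. Wnt10a stands at 3.96 in primary tumours against osteoblasts, the highest in that column, and Rspo3 at -4.79 is the lowest.

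Between secondary and primary tumours 0 of 24 members were called (lowest limma adjusted p 0.447), and 1 of 12858 genes (0.00778%) was called in all. At an unadjusted limma p below 0.05 there were 2 of 24 members, and the share of all genes below it was not counted. These were Fzd7, 0.80 higher (SE 0.29), and Fzd6, 1.07 higher (SE 0.41), and neither is read as a difference between the groups. Each of the 4 secondary tumours has a primary tumour of the same number. Within the 4 pairs, 12 of the 24 members differed in one direction in every pair. The share of all genes that did so was not counted, so this number is not read as particular to the members. Fzd6 was higher in the secondary tumour by 0.14 to 1.63, Fzd2 by 0.14 to 0.85, Fzd7 by 0.34 to 0.58, Wnt10a by 0.07 to 0.72, Wnt4 by 0.25 to 0.60, Wnt6 by 0.21 to 0.49 and Lrp6 by 0.11 to 0.36. Lower in every pair were Fzd4 (-1.53 to -0.02), Wnt5a (-0.91 to -0.31), Fzd9, Fzd10 and Rspo2. Over the whole groups Wnt5a ran the other way, with a log2 difference of 0.56 that was not called. With the tumour number as a block, no member was called (lowest adjusted p 0.31) and 3 of 12858 genes were.

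**Figure D4:**
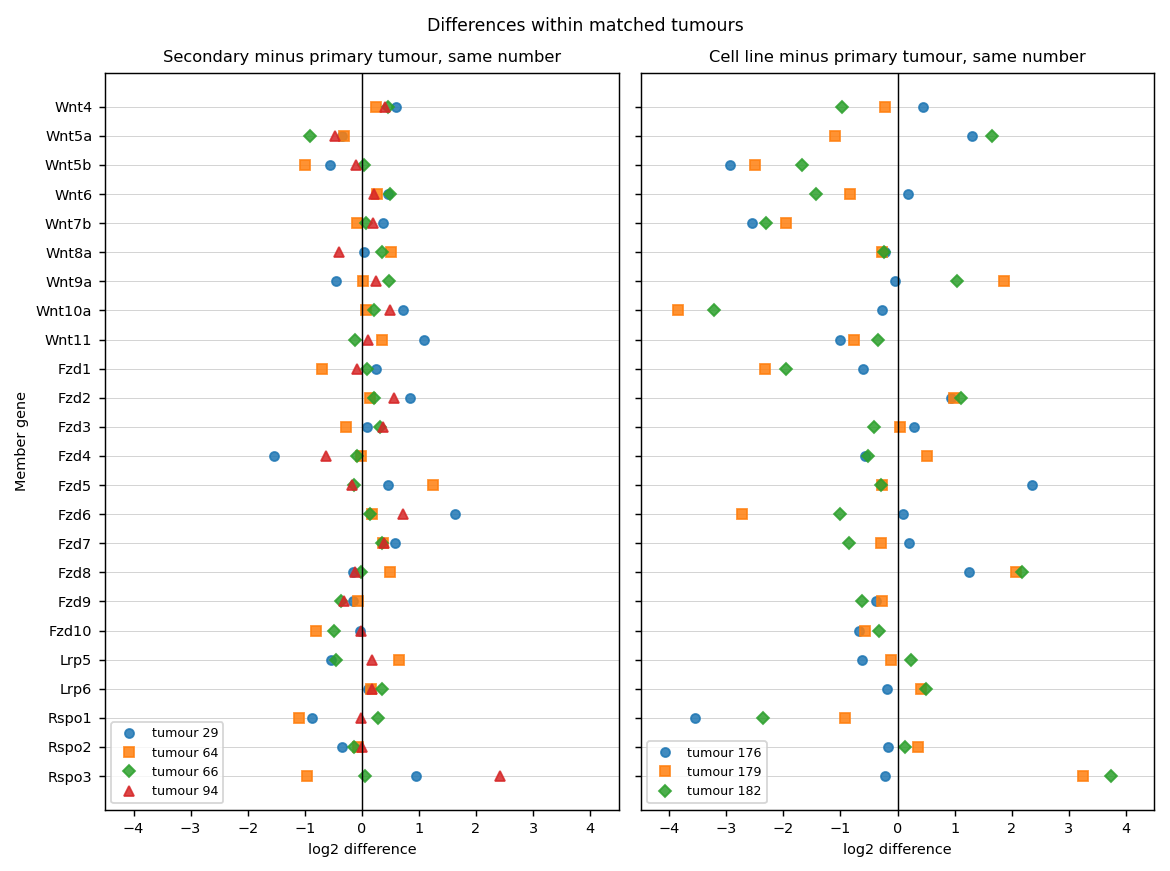
Log2 difference (horizontal axis) within tumours of the same number for the 24 tested members, secondary minus primary tumour on the left (4 pairs) and cell line minus primary tumour on the right (3 pairs). Of the members, 11 lie on one side of 0 in all 3 pairs with cell lines, Fzd8, Wnt5b and Wnt7b among them. The share of all genes that do so was not counted. Differences between secondary and primary tumours are mostly within 1 of 0.

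Samples here are whole tissue or cultures, so fewer cells of a type and less RNA per cell cannot be told apart. Markers of several other cell types moved with the groups. The mean level of 15 macrophage markers was 4.86 to 5.04 in cell lines, 7.77 to 9.24 in secondary tumours, 7.70 to 9.69 in primary tumours and 5.02 to 5.19 in osteoblasts, and 13 of the 14 tested were called higher in primary tumours than in osteoblasts. In osteoblasts C1qa, Cd163 and Marco were at the floor. The endothelial mean was 5.39 to 5.50 in cell lines, 6.37 to 7.69 in secondary tumours, 6.76 to 7.83 in primary tumours and 5.90 to 6.27 in osteoblasts, with 9 of 14 markers called higher in primary tumours. The skeletal muscle mean was 4.92 to 8.44 in cell lines, 4.70 to 5.08 in secondary tumours, 4.86 to 10.61 in primary tumours and 4.97 to 5.07 in osteoblasts, and 11 of 14 tested markers were called higher in primary tumours than in osteoblasts (median log2 difference 3.48). Adipocyte markers were the reverse, with a mean of 5.20 to 6.62 in cell lines, 5.37 to 6.75 in secondary tumours, 5.13 to 6.83 in primary tumours and 10.06 to 10.13 in osteoblasts, and all 8 tested were called lower in primary tumours. The osteoblast and osteocyte list, which checks the label, was at 6.88 to 8.31 in cell lines, 8.33 to 10.15 in secondary tumours, 6.92 to 10.59 in primary tumours and 9.32 to 9.45 in osteoblasts. The smooth muscle and pericyte mean was 7.56 to 8.88 in primary tumours and 9.14 to 9.55 in osteoblasts. Of its 9 tested markers 1 was called higher and 4 lower in primary tumours. The osteoclast mean was 5.68 to 9.10 in primary tumours and 5.75 to 5.86 in osteoblasts, with 1 of 6 tested markers called higher. A keratinocyte list, chosen after the values were seen, was at 4.97 to 9.31 in primary tumours and 5.29 to 5.33 in osteoblasts. Of its 8 tested markers 1 was called higher in primary tumours (median log2 difference 0.46). The part of these cells in the members' differences was not tested.

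Across the 15 primary tumours, 276 pairs of tested members were compared and 3 passed Benjamini-Hochberg adjustment of a two-sided permutation test with 100000 resamples. Tumours were shuffled without regard to array set, so a p here also takes in any offset between sets B and C. Fzd7 and Wnt6 had a Pearson r of 0.87 (adjusted p = 0.0069) and a Spearman rho of 0.84 (adjusted p = 0.0235), and r was 0.92 without the 2 tumours farthest from the median of Wnt6. Within array sets r was 0.36 in set B (n = 7) and 0.98 in set C (n = 8), lower in set B than in set C. Fzd6 and Wnt5a had an r of 0.83 (permutation adjusted p = 0.0069) and a rho of 0.83. Without the 2 farthest tumours r was 0.85, and it was 0.63 in set B and 0.78 in set C, where no p was computed. Both genes stood higher in set B than in set C. Their log2 differences from osteoblasts were 3.13 and 2.09 for Fzd6 and 1.15 and -0.53 for Wnt5a. Wnt10a and Wnt6, neighbours on chromosome 1, had an r of 0.76 (permutation adjusted p = 0.0469) but a rho of 0.56 (adjusted p = 0.34). Without the 2 farthest tumours their r was 0.55, and it was 0.30 in set B and 0.86 in set C, where tumours 183 and 330 were low in both genes.

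**Figure D5:**
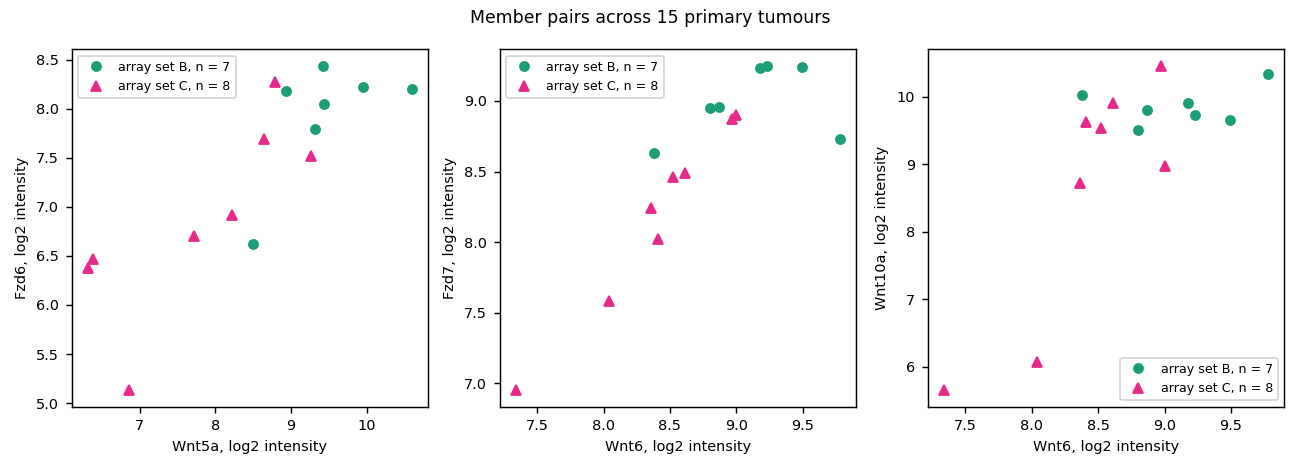
Log2 intensity of 3 pairs of members across the 15 primary tumours, 7 in array set B (circles) and 8 in array set C (triangles). In the right panel 2 tumours of set C, 183 and 330, lie far below the rest in both Wnt6 and Wnt10a.

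Members were also set against the mean levels of 7 marker lists across the primary tumours, 168 relations in all. The resampling for these also took no account of array set. One passed, Fzd5 with the osteoblast and osteocyte list (r 0.77, permutation adjusted p = 0.0302), but its rank correlation did not (rho 0.62, adjusted p = 0.37). Its r was 0.59 without the 2 tumours farthest from the median of the list, 0.42 in set B and 0.83 in set C.

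Beyond the members, 59 genes of the Wnt pathway were listed by role, of which 52 were tested. In primary tumours against osteoblasts 19 (36.5%) were called, 9 higher and 10 lower, against 18.4% over all genes (6.59% higher, 11.8% lower). The list median was 0.06, against -0.07 over all genes. In secondary tumours 18 (34.6%) were called, 9 higher and 9 lower, where 18.4% of all genes were, and in cell lines 6 (11.5%), all lower, where 8.16% of all genes were. Of the 10 tested secreted antagonists 4 fell and 1 rose in primary tumours. Sfrp1 averaged 7.30 in primary tumours and 12.05 in osteoblasts (log2 difference -4.75, limma adjusted p = 4.69e-06), Sfrp2 8.69 and 13.22 (-4.53, adjusted p = 5.51e-06) and Frzb 5.35 and 9.11 (-3.75, adjusted p = 0.00162). These 3 are secreted proteins that bind Wnt. Wif1, another Wnt-binding inhibitor, went the other way, with a rise of 6.54 in primary tumours and of 7.0 in secondary tumours. In cell lines Wif1 was at 4.73, against 12.19 in secondary tumours (-7.46) and 11.74 in primary tumours (-7.01). The Wif1 means of cell lines and of osteoblasts lay below the filter, so Wif1 entered the test mainly through tumours.

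Of the 5 R-spondin receptors and their ligases, 2 rose and 2 fell in primary tumours. Lgr5 fell by 4.88 there and by 4.17 in cell lines, and Lgr4 fell by 1.59 in primary tumours (limma adjusted p = 0.000873). Lgr6 rose by 2.70 (adjusted p = 0.00554) and Rnf43, a ligase that clears Frizzled, by 1.64 (adjusted p = 0.00372). Wls, which carries Wnt proteins to the cell surface, fell by 1.01 in primary tumours. Among the nuclear effectors Lef1 rose by 2.09 (adjusted p = 0.00332) and Tcf7l2 fell by 1.67 (adjusted p = 9.97e-06).

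Of 9 tested targets of beta-catenin, 3 rose and 2 fell in primary tumours: Tnfrsf19 (4.94), Nkd2 (2.31) and Rnf43 rose, and Lgr5 and Ccnd1 (-1.64) fell. Axin2, a feedback inhibitor often read as a sign of beta-catenin activity, was 0.93 above osteoblasts in primary tumours and not called. In cell lines Axin2 averaged 7.42, against 8.64 in secondary tumours (-1.23, limma adjusted p = 0.000473) and 8.65 in primary tumours (-1.23, adjusted p = 2.1e-05). Cell lines against primary tumours gave 12 called pathway genes (23.1%, where 11.7% of all genes were called), 3 higher and 9 lower. Against secondary tumours there were 11 (21.2%, where 13.1% of all genes were called), 2 higher and 9 lower. The Lef1 difference between cell lines and primary tumours was -1.85 (adjusted p = 0.00428), while Sfrp1 and Sfrp2 were higher by 2.08 and 2.54.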

How the data were processed

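The deposited files hold 1 linear intensity per probe set for 45101 probe sets on each of 26 arrays, 64 of them controls. Per the labels' protocols, RNA was copied from its poly(A) end and labelled with biotin by T7 transcription. How the authors summarised, background-corrected and scaled the arrays is not given in the sources used here. No scaling was added, although array medians differed between groups, and 2 scalings were tried as alternatives. For arrays their number limits the precision.

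Of the probe sets, 34945 carried 1 gene symbol, 932 several and 9224 none here, from the platform's annotation updated through RefSeq (GRCm38.p6). Intensities were raised to the 20th percentile of all values (12.5), taken to log2 and fitted with limma 3.58.1 in R 4.3.3, 4 groups in 1 model without covariates, with Benjamini-Hochberg adjustment over 12858 genes. Each p given with a log2 difference comes from this fit or, where said, from the fit of 27308 probe sets or an alternative setting. The fit was tested on simulated data. Array sets were told apart by hybridisation controls, a bioB to bioC ratio above 0.6 marking set C and a bioD 5′ to 3′ ratio above 0.5 set A among the rest.

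Same-numbered samples were taken to come from the same tumour, as the labels' numbers read, and number 66, whose title says cell line, was kept with the secondary tumours. Deviations of same-numbered samples from their group means had correlations of 0.22 to 0.64 between secondary and primary tumours and 0.04 to 0.08 between cell lines and primary tumours. Every secondary tumour correlated best with the primary tumour of its own number. Each of these cell lines correlated best with a primary tumour of another number (0.11 to 0.19), so its pairing rests on the labels. The members, the pathway genes and the marker lists were chosen with earlier results of these data known. Values by sample are given for each member called in at least 1 comparison, and pathway genes were named by size among those called. The alternatives were the floor, the filter, both scalings, the mean of probe sets (also without the filter, an alternative chosen after seeing the data), array weights, only the groups compared, leaving out each sample, array sets and tumour number blocks. No array was a copy of another (highest correlation 0.967).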

Additional observations from a re-analysis of the deposited data

Results flagged for a closer look

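In 48 groups of 4 samples (24 members in cell lines and in secondary tumours), 4 held a sample far from the other 3 by Dixon's ratio (critical value 0.829), and chance gives about 1 in 20. Wnt10a was 8.45 in cell line 176, against 5.77 to 6.07 in the other lines. Wnt4 was 8.14 in the same line, against 6.41 to 6.56. Rspo2, by its chosen probe set, was 7.29 in cell line 213, against 7.84 to 7.95 in the other lines. Fzd2 was 8.26 in secondary tumour 94, against 9.08 to 9.20 in the other secondary tumours.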

How the results depend on the processing

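Between primary tumours and osteoblasts 11 of the 13 member calls held under every alternative (not Fzd6 and Rspo1), and between secondary tumours and osteoblasts 12 of 13 (not Wnt5b). Fzd6 failed the filter with the mean of probe sets, so for it this setting counts only without the filter. Of 3 calls between cell lines and osteoblasts 2 held everywhere (Fzd4 and Lrp6), as did 3 of 9 between cell lines and primary tumours (Fzd8, Wnt5b and Wnt7b) and 3 of 11 between cell lines and secondary tumours (Fzd6, Fzd8 and Wnt7b). Leaving out single samples gave 12 to 14 called members in primary and in secondary tumours against osteoblasts, 3 to 5 in cell lines against osteoblasts, 6 to 11 against primary tumours and 9 to 13 against secondary tumours. For the pathway genes it gave 17 to 21 in primary and 16 to 20 in secondary tumours against osteoblasts, 4 to 8 in cell lines against osteoblasts, 8 to 14 against primary and 8 to 12 against secondary tumours, and 0 members or pathway genes were called between secondary and primary tumours. Cell lines against osteoblasts gave 6 called members with array weights, 5 with only the groups compared 5 without secondary tumour 94 and 5 with the mean of probe sets without the filter, and 13 pathway genes with array weights and 3 after quantile normalization. Cell lines against primary tumours gave 3 members and 4 pathway genes with the replicate block over 3 matched tumours, and 7 pathway genes within array set C. The block, which uses fewer samples, also gave 683 called genes in all against 1509, and 3 against 1 between secondary and primary tumours, where it changed no member's call. Cell lines against secondary tumours gave 7 members with the mean of probe sets, and 4 members and 3 pathway genes with array set as a term, where 740 genes were called in all against 1690. Between secondary and primary tumours 8 genes were called in all within array set B, 2 with only the groups compared and 2 without cell line 176. Rspo2 turned to 1.85 (limma adjusted p = 4.24e-09, and 1.59e-08 without the filter) between cell lines and primary tumours with the mean of its probe sets, against -0.04. By Spearman's rho 4 member pairs and 0 relations with marker lists passed. Scaling to the 75th percentile moved the median difference of all genes by over 0.1 in 3 comparisons: to 0.08 in cell lines versus osteoblasts, against -0.10, to 0.08 versus secondary tumours, against -0.07, and to 0.04 in primary tumours versus osteoblasts, against -0.07. The share of higher genes among all calls moved with scaling to the 75th percentile or quantile normalization: 35.8% and 30.7%, against 19.4%, in cell lines versus osteoblasts, 47.9% and 50.6%, against 40%, versus primary tumours, and 52.9% and 52.4%, against 36.2%, versus secondary tumours. The causes were not tested.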
